A study of Mus musculus with 21 samples.

Results

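The integrin and laminin subunit genes of mouse were taken as every gene whose symbol, in the tables described here, is that of an integrin alpha or beta subunit or of a laminin alpha, beta or gamma chain. The rule found 36 genes, 17 for integrin alpha, 8 for integrin beta and 11 for laminin chains, among up to 43945 loci of a table, and found the same 36 in each of the 3 tables. The study sequenced RNA of mouse epidermal keratinocytes in 21 libraries, 3 in each of 7 groups. Wild type cells made up 9 of them: hair follicle stem cells (HFSCs) taken by cell sorting, total epidermal cells, and HFSCs from culture. The other 12 came from 3C cultures, as sorted cells with alpha-6 integrin that were CD34+ or CD34neg, and as cultures that received cyclopamine or dorsomorphin over 48 h. Genotype is not labelled for these 12. A 3C culture starts from total epidermal cells and is kept for 10 to 14 days. Cyclopamine blocks Smoothened, the signal transducer of the Hedgehog pathway, and dorsomorphin blocks signalling by BMP receptors. Strain, age and the pooling of animals are not given in the sources used here, and the drugs were compared with each other, not with untreated cultures. The design asked which cells the CD34+ and CD34neg fractions are, and how transcripts respond before dorsomorphin depletes, and cyclopamine enriches, the stem cells.

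Integrins are receptors made of 1 alpha and 1 beta chain that hold cells to the matrix, and laminins are trimers of an alpha, a beta and a gamma chain that build the basement membrane. In basal keratinocytes the integrin alpha-6 beta-4 sits in the hemidesmosome, where it links keratin filaments to laminin-332, a trimer that holds the Lama3 and Lamb3 chains. The integrins alpha-3 beta-1 and alpha-2 beta-1 of the same cells bind laminin and collagen, alpha-5 beta-1 binds fibronectin, and alpha-v pairs with beta-5, beta-6 or beta-8 to bind ligands with an RGD motif. The beta-2 and beta-7 integrins belong to leukocytes.

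Each table gave 1 FPKM value (fragments scaled to transcript length and to library size) per locus and population, set by the authors over the replicates, so no spread between replicates stands beside any value here and neighbours in an order of levels cannot be separated by it. FPKM is per length, so levels of different genes are compared within a population. Higher and lower are used where the adjusted p was under 0.05 by the test in the authors' deposited table. No adjusted p of the authors' deposited table of 3 populations lies below 0.000212. Nothing in the labels says that replicates are separate animals or cultures, and the p-values may then cover technical spread alone. The 3-population table names its populations CD34a6, HFSC and bulk. Bulk was read as total epidermal cells. The labels do not tie CD34a6 or HFSC to the purified or to the cultured stem cells, so both names are kept from the table. With bulk read so, 1 of them came from culture. Differences between CD34a6 and HFSC, and those of the cultured population from bulk, cannot be told apart from an effect of culture. The sort gene Cd34 was at 327 FPKM in CD34a6, 8.70 in HFSC and 10.6 in bulk. All 8 keratinocyte markers listed here stood at 1 FPKM or more in these 3 populations, in the CD34neg fraction and with both drugs, and 6 of 8 did in the CD34+ fraction, where Krt1 was at 0.409 and Krt10 at 0.455 FPKM. Krt15, a keratin of hair follicle stem cells, was at 9923 FPKM in CD34a6, 37.9 in HFSC and 4791 in bulk.

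Of the 36 genes, 29 were tested against bulk in both comparisons with it. In CD34a6, 18 of them were higher than in bulk, 5 were lower and 6 did not pass, where 22.0% of all loci tested were higher and 24.3% lower (46.3% in all). In HFSC, 14 were higher, 5 lower and 10 did not pass, against 19.0% and 24.7% (43.7% in all) of the loci. The genes lower than bulk in either population were all among 7, Lama1 and leukocyte chains. These 7 were tested only against bulk, where they were high, so the counts of lower genes come with the filter. Between HFSC and CD34a6, 22 of the 36 genes were tested, with 10 higher in HFSC, 4 lower and 8 not past the threshold, against 25.2% and 29.0% (54.2% in all). The median log2 ratio of FPKM + 1 over the tested genes was 1.15 for CD34a6 over bulk, 1.02 for HFSC over bulk and 0.41 for HFSC over CD34a6, beside 0.00, -0.11 and -0.07 over all loci tested. These 3 comparisons share their populations and are not independent. The summed FPKM of bulk was 917078 against 406723 in CD34a6 and 482175 in HFSC, and with each value taken as a share of that sum the first and second medians became 2.26 and 1.78. With the trend of the ratio on transcript length subtracted they became 0.70 and 0.69. Keratins of the differentiating layers above the basal one were highest in bulk: Krt10 was at 25128 FPKM in bulk, 874 in CD34a6 and 41.5 in HFSC, and Krt1 at 3056, 125 and 10.7. Both were lower in CD34a6 and in HFSC than in bulk (adjusted p = 0.000212 in the authors' deposited table). Against bulk, the whole keratinocyte list of 8 had 1 gene higher and 4 lower for CD34a6, and 2 higher and 4 lower for HFSC. The part of differentiating cells in the counts was not tested.

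The hemidesmosome integrin chains Itga6 and Itgb4 and the laminin-332 chain Lama3 were higher in CD34a6 than in bulk and highest in HFSC, while Lamb3 was higher in both than in bulk. Itga6, which encodes the alpha-6 chain used as a sort marker, stood at 72.4 FPKM in bulk, 155 in CD34a6 and 306 in HFSC. Itgb4, the beta-4 chain, stood at 59.7, 206 and 337 in the same order, and 98.5% of tested loci lay below it in CD34a6. These 4 genes were higher in CD34a6 and in HFSC than in bulk, with adjusted p between 0.000212 and 0.00307 in the authors' deposited table. Lama3, the alpha chain of laminin-332, was at 17.1 FPKM in bulk, 48.8 in CD34a6 and 116 in HFSC. HFSC was higher than CD34a6 for Itga6, Itgb4 and Lama3. In the authors' deposited table the adjusted p was 0.000212 for Itga6 and Lama3 and 0.0149 for Itgb4. Lamb3, the beta chain, was at 57.3 FPKM in bulk, 195 in CD34a6 and 163 in HFSC, and the difference between the last 2 values did not pass (authors' deposited table, adjusted p = 0.224).

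**Figure D1:**
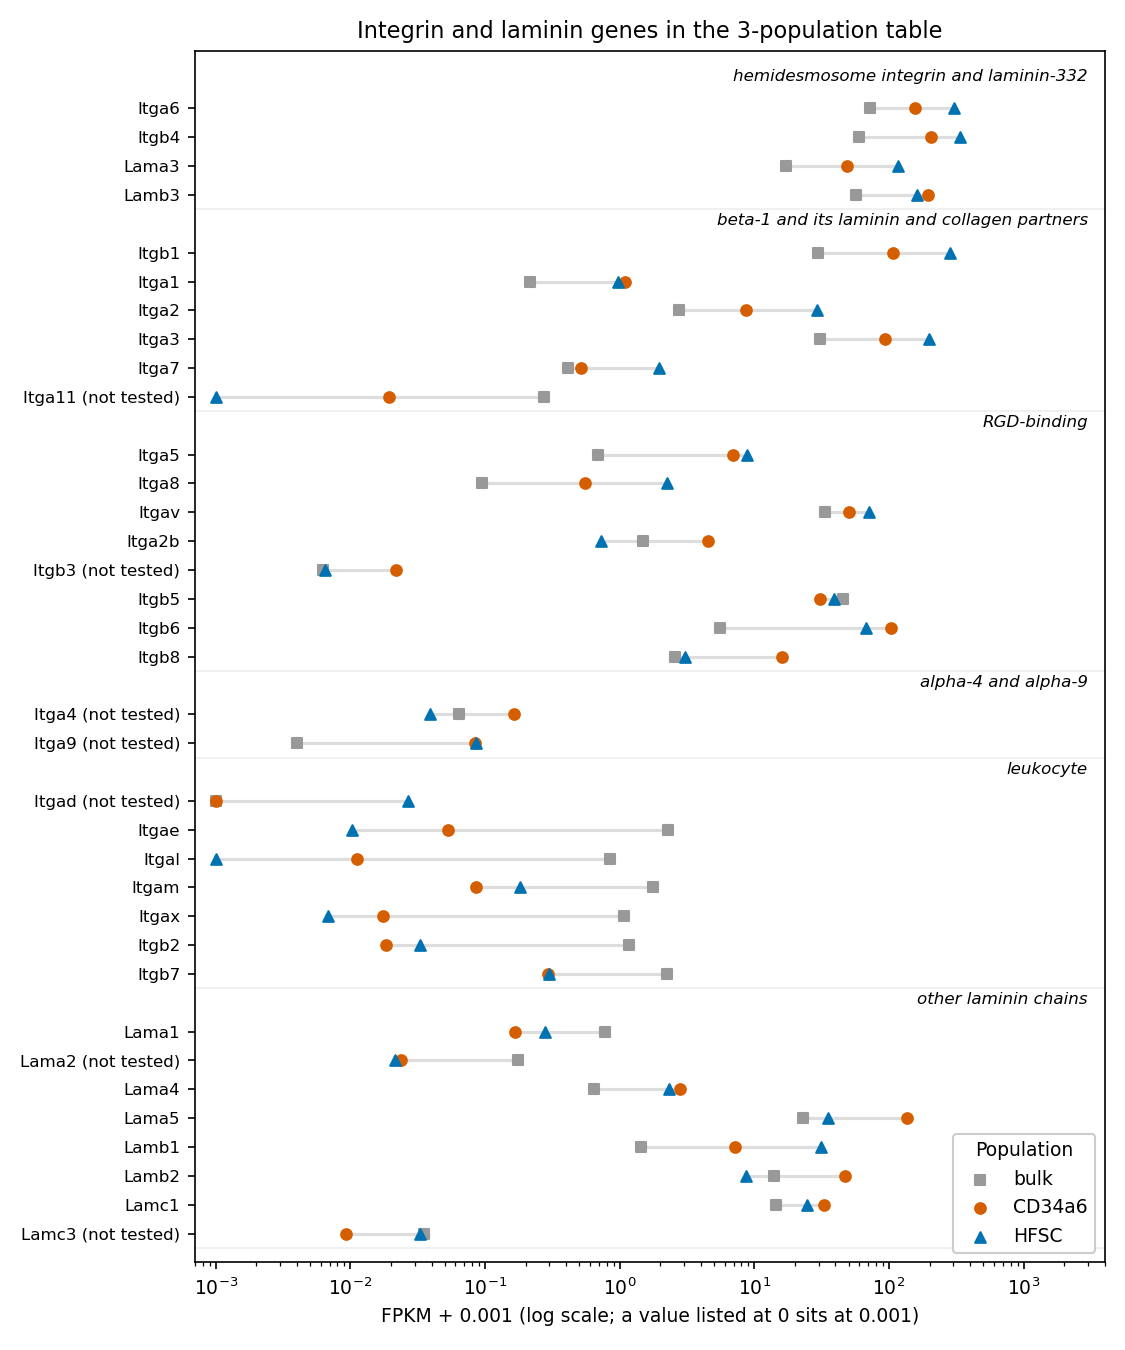
FPKM of the integrin and laminin genes reported here in bulk (grey squares), CD34a6 (orange circles) and HFSC (blue triangles), on a log axis after adding 0.001, in 6 groups by role. Itga6, Itgb4, Lama3 and Lamb3 sit between 17.1 and 337 FPKM with bulk lowest in each, while the leukocyte genes reach at most 2.27 FPKM.

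Chains of the same receptor or trimer were not at equal levels, and of the pair Itga6 and Itgb4 the chain with the higher FPKM changed between populations. The ratio of Itga6 to Itgb4 FPKM was 1.21 in bulk, 0.756 in CD34a6 and 0.907 in HFSC. Of the laminin-332 chains, Lamb3 stood above Lama3 in each population, and the ratio of Lama3 to Lamb3 FPKM was 0.298 in bulk, 0.251 in CD34a6 and 0.714 in HFSC. These ratios carry no error, since each rests on 2 single values.

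Itgb1, the beta chain shared by most matrix receptors of keratinocytes, was higher together with the alpha chains Itga3 and Itga2. It stood at 29.9 FPKM in bulk, 107 in CD34a6 and 285 in HFSC, 9.54-fold over bulk in the last. Itga3, of the laminin receptor alpha-3 beta-1, stood at 30.6, 93.8 and 198 FPKM, and Itga2, of the collagen receptor alpha-2 beta-1, at 2.76, 8.66 and 29.2. For each of these 3 genes the 3 populations had the same order, bulk lowest and HFSC highest. All 3 pairwise differences of all 3 genes passed, each with the smallest adjusted p of the authors' deposited table. Itga7, a laminin receptor chain best known from muscle, was at 0.409, 0.516 and 1.97 FPKM and was higher in HFSC than in either other population. The Itga7 locus also covers Mettl7b on the other strand. Itga1, a collagen receptor chain, was at 0.215 FPKM in bulk, 1.08 in CD34a6 and 0.972 in HFSC and passed in no comparison. Its locus also covers Pelo on the same strand. Itga11, a collagen receptor chain of fibroblasts, was listed at 0 in HFSC and reached 0.272 FPKM in bulk, and it was not tested. Summed over the alpha chains that can pair with beta-1, other than Itga6 and Itgav, the ratio of alpha to Itgb1 FPKM was 1.18 in bulk, 1.05 in CD34a6 and 0.847 in HFSC.

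Promoters are shown for Itga3 and Itgb1, whose chains pair and whose FPKM had the same order over the 3 populations, for Lamb3, which unlike Lama3 was not higher in HFSC than in CD34a6, and for Itga5, the integrin gene that differed between the drugs. Each runs 5′ to 3′ on the gene's strand, from 250 bases before the RefSeq start to 50 after it, in build GRCm38.p6. Capitals mark GGGCGG, the GC box, on either strand. The other motifs searched were TATAAA, the TATA box, and TGANTCA, the AP-1 site, also on both strands, and no matches overlapped in the windows printed. Of 32544 distinct promoters of this length, 35.9% held GGGCGG, 13.6% TATAAA and 7.79% TGANTCA.
Itga3, chr11:95076665-95076964, minus strand: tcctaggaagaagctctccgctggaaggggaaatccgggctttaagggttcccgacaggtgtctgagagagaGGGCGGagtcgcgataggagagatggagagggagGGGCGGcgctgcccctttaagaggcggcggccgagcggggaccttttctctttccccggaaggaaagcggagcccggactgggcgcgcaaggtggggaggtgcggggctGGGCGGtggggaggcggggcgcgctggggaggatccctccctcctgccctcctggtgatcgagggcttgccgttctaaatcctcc
Itgb1, chr8:128685404-128685703, plus strand: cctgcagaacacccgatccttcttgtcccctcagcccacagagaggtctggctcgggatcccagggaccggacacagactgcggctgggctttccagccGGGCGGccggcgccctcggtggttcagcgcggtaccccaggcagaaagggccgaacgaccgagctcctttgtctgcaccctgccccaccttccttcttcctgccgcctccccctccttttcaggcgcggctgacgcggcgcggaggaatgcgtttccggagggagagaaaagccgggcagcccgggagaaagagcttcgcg
Lamb3, chr1:193301744-193302043, plus strand: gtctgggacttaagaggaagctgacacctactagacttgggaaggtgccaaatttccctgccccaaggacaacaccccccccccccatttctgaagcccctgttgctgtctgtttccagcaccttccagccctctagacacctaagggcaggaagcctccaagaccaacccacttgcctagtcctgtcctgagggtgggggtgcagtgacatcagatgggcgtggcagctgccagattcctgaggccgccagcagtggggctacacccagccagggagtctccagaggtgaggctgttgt
Itga5, chr15:103366742-103367041, minus strand: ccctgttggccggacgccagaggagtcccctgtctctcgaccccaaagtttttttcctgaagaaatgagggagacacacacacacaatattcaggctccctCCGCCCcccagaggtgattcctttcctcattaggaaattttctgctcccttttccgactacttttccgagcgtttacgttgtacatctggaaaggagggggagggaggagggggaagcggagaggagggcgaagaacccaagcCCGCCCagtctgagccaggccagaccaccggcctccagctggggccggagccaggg
The Itga3 window held 3 GC boxes, that of Itga5 held 2 and that of Itgb1 held 1, while the window of Lamb3 held none of the motifs searched. RefSeq gives Itga3 and Lamb3 a further start each, whose windows are not printed. That of Itga3 held 1 GC box and 1 TGANTCA, and that of Lamb3 held neither. The start printed for Itga3 is the one at the end of its locus. Both Lamb3 windows, from 193301744 and from 193301993, lie inside its locus, where the annotated gene begins at 193207699. The motifs at that annotated start of Lamb3 were not searched. Promoters of RefSeq were used for 22 of the 36 genes, and Itga6 and Itgb4 had no entry.

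Among RGD-binding chains, Itgb6 had the largest log2 ratios of FPKM + 1 over bulk (3.99 and 3.39), while Itgav and Itgb5 passed in no comparison of the 3 populations. Itgb6, the epithelial beta chain of the receptor that activates latent TGF-beta, stood at 5.58 FPKM in bulk, 104 in CD34a6 and 67.8 in HFSC. It was 18.6-fold and 12.2-fold over bulk (authors' deposited table, adjusted p = 0.000212 for both), and the difference between CD34a6 and HFSC did not pass (adjusted p = 0.132 in that table). Itgb8, another TGF-beta activating chain, was at 2.58 FPKM in bulk, 16.0 in CD34a6 and 3.03 in HFSC. It was thus high in CD34a6 alone, higher there than in bulk and lower in HFSC than in CD34a6, and both differences passed. Itgb5, a vitronectin receptor chain, was at 45.4, 30.9 and 38.9 FPKM, and Itgav, the alpha chain of all of these, at 33.6, 50.4 and 71.6. By share of FPKM over Itgb3, Itgb5, Itgb6 and Itgb8, Itgb5 held 84.7% in bulk, 20.5% in CD34a6 and 35.4% in HFSC, and Itgb6 held 10.4%, 68.8% and 61.8%.

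Itga5, the alpha chain of the fibronectin receptor, was higher in both CD34a6 and HFSC than in bulk. It stood at 0.685 FPKM in bulk, 6.93 in CD34a6 and 8.79 in HFSC, and the last 2 values had an adjusted p of 0.0765 (authors' deposited table). Itgb1 was 43.7 times the level of Itga5 in bulk, 15.4 times in CD34a6 and 32.5 times in HFSC. Itga8, the alpha chain of a nephronectin receptor, was at 0.0945, 0.551 and 2.24 FPKM, and each pairwise difference passed. Of the 7 endothelial and mural markers, Acta2, the smooth muscle actin gene, was at 1.19 FPKM in bulk, 0.289 in CD34a6 and 62.1 in HFSC. The whole list summed to 1.49, 1.85 and 63.1 FPKM with 1 gene at 1 FPKM or more in each population, and in HFSC Cdh5 and Des were listed at 0. The 2 genes of the list tested against bulk in HFSC, Acta2 and the endothelial gene Pecam1, were both higher there. Their log2 ratios of FPKM + 1 were 4.85 at most and 0.70 at least. Against CD34a6, 3 genes of the list were tested, with 2 higher in HFSC and 1 lower. The 5 Schwann and muscle markers found summed to 38.4 FPKM in bulk, 8.19 in CD34a6 and 10.9 in HFSC. Between HFSC and CD34a6, 3 of them were tested, with 0 higher in HFSC and 2 lower. The 1 tested between HFSC and bulk was lower in HFSC. The part of cells of either list in the values of Itga7 and Itga8 was not tested. Itga2b, a platelet chain, was at 1.48 FPKM in bulk, 4.50 in CD34a6 and 0.719 in HFSC. It was higher in CD34a6 than in bulk (adjusted p = 0.0452 in the authors' deposited table) and lower in HFSC than in CD34a6. Its partner Itgb3 was at 0.00530, 0.0209 and 0.00545 FPKM and was not tested. The platelet genes Gp9, Pf4 and Ppbp were listed at 0 in CD34a6 and reached at most 0.168 FPKM in the other 2 populations. The whole list of platelet and erythroid markers summed to 137 FPKM in bulk, 4.01 in CD34a6 and 0.359 in HFSC, of which the haemoglobin gene Hba-a1 made 134, 3.91 and 0.192.

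Leukocyte integrins were found in bulk at low FPKM and were near 0 elsewhere. Itgae, the alpha chain of intraepithelial T cells and some dendritic cells, stood at 2.27 FPKM in bulk, 0.0516 in CD34a6 and 0.00927 in HFSC. Its partner Itgb7 stood at 2.26, 0.295 and 0.298. Itgam, Itgal and Itgax, which pair with beta-2, were at 1.77, 0.842 and 1.07 FPKM in bulk and between 0 and 0.181 in the other 2, with Itgal listed at 0 in HFSC. Itgb2 itself was at 1.16 FPKM in bulk, 0.0174 in CD34a6 and 0.0317 in HFSC. Itgae, Itgam, Itgax and Itgb7 were lower in CD34a6, and Itgal, Itgam, Itgb2 and Itgb7 lower in HFSC, than in bulk. Which of them passed did not follow the size of the difference, since the authors' deposited table gave Itgae an adjusted p of 0.0433 for CD34a6 and 0.235 for HFSC. These 6 genes, and Lama1, were tested in no comparison without bulk, the population where they were high, so a low level elsewhere comes with the filter. The leukocyte chains made 3.18% of the summed integrin FPKM in bulk and 0.06% and 0.04% in CD34a6 and HFSC.

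Immune cell markers moved with these genes. The 14 markers summed to 397 FPKM in bulk, 10.4 in CD34a6 and 5.35 in HFSC, with 10, 4 and 2 of them at 1 FPKM or more, and the pan-leukocyte gene Ptprc at 2.21, 0.0544 and 0. The part of such cells in the result was not tested, and in RNA of mixed cells fewer cells of a type and less RNA per cell cannot be told apart. Itgad, a further leukocyte chain, was listed at 0 in bulk and CD34a6 and at 0.0257 FPKM in HFSC. Itga4 and Itga9, the chains of receptors for VCAM-1 and tenascin, stood at or under 0.163 FPKM in all 3 populations. None of these 3 was tested.

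The remaining laminin chains had no common order over the populations. Between HFSC and CD34a6, 1 of 5 tested was higher and 2 were lower, beside 54.2% of all loci that passed in that comparison. Lama5, the alpha chain of laminin-511 and laminin-521, stood at 22.9 FPKM in bulk, 137 in CD34a6 and 35.4 in HFSC, and Lamb2, the beta chain of laminin-521, at 13.9, 47.3 and 8.66. Both were higher in CD34a6 than in bulk and lower in HFSC than in CD34a6, and neither passed between HFSC and bulk (authors' deposited table, adjusted p = 0.224 and 0.125). Lamb1, the beta chain of laminin-511 and laminin-411, had another order, at 1.44 FPKM in bulk, 7.19 in CD34a6 and 31.4 in HFSC, and all 3 of its differences passed. Lamc1, the gamma chain shared by these trimers, was at 14.6, 32.6 and 24.4 FPKM and passed for CD34a6 over bulk alone (adjusted p = 0.0126 in the authors' deposited table). Lama4, the alpha chain of laminin-411, was at 0.648, 2.78 and 2.34 FPKM and was higher in both than in bulk. Lama1, of laminin-111, was lower in both, at 0.778 FPKM in bulk, 0.166 in CD34a6 and 0.278 in HFSC. Lama2 and Lamc3 stood at or under 0.173 FPKM and were not tested. The 8 fibroblast markers, cells that also make laminins, summed to 62.7 FPKM in bulk, 87.0 in CD34a6 and 1.91 in HFSC, with 4, 5 and 0 at 1 FPKM or more and Col3a1 and Lum listed at 0 in CD34a6 and HFSC. Members of the list moved in opposite directions in CD34a6: Vim, an intermediate filament gene, was lower than in bulk at 5.53 against 56.6 FPKM. The collagen genes Col1a1 (22.4 against 1.21), Col1a2 (8.08 against 0.825) and Col5a1 (48.4 against 1.73) were higher. In HFSC, Vim and Col5a1 were lower than in bulk, at 0.588 and 0.729 FPKM. The part of fibroblasts in the laminin values was not tested.

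The make-up of the laminin chains differed in FPKM between the populations. Lama5 held 72.5% of laminin alpha FPKM in CD34a6, 55.1% in bulk and 23.0% in HFSC, where Lama3 held 75.3%. The ratio of Lamb2 to Lamb1 was 9.67 in bulk, 6.58 in CD34a6 and 0.276 in HFSC. Lamb3 held between 78.1% and 80.2% of laminin beta FPKM in the 3 populations.

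**Figure D2:**
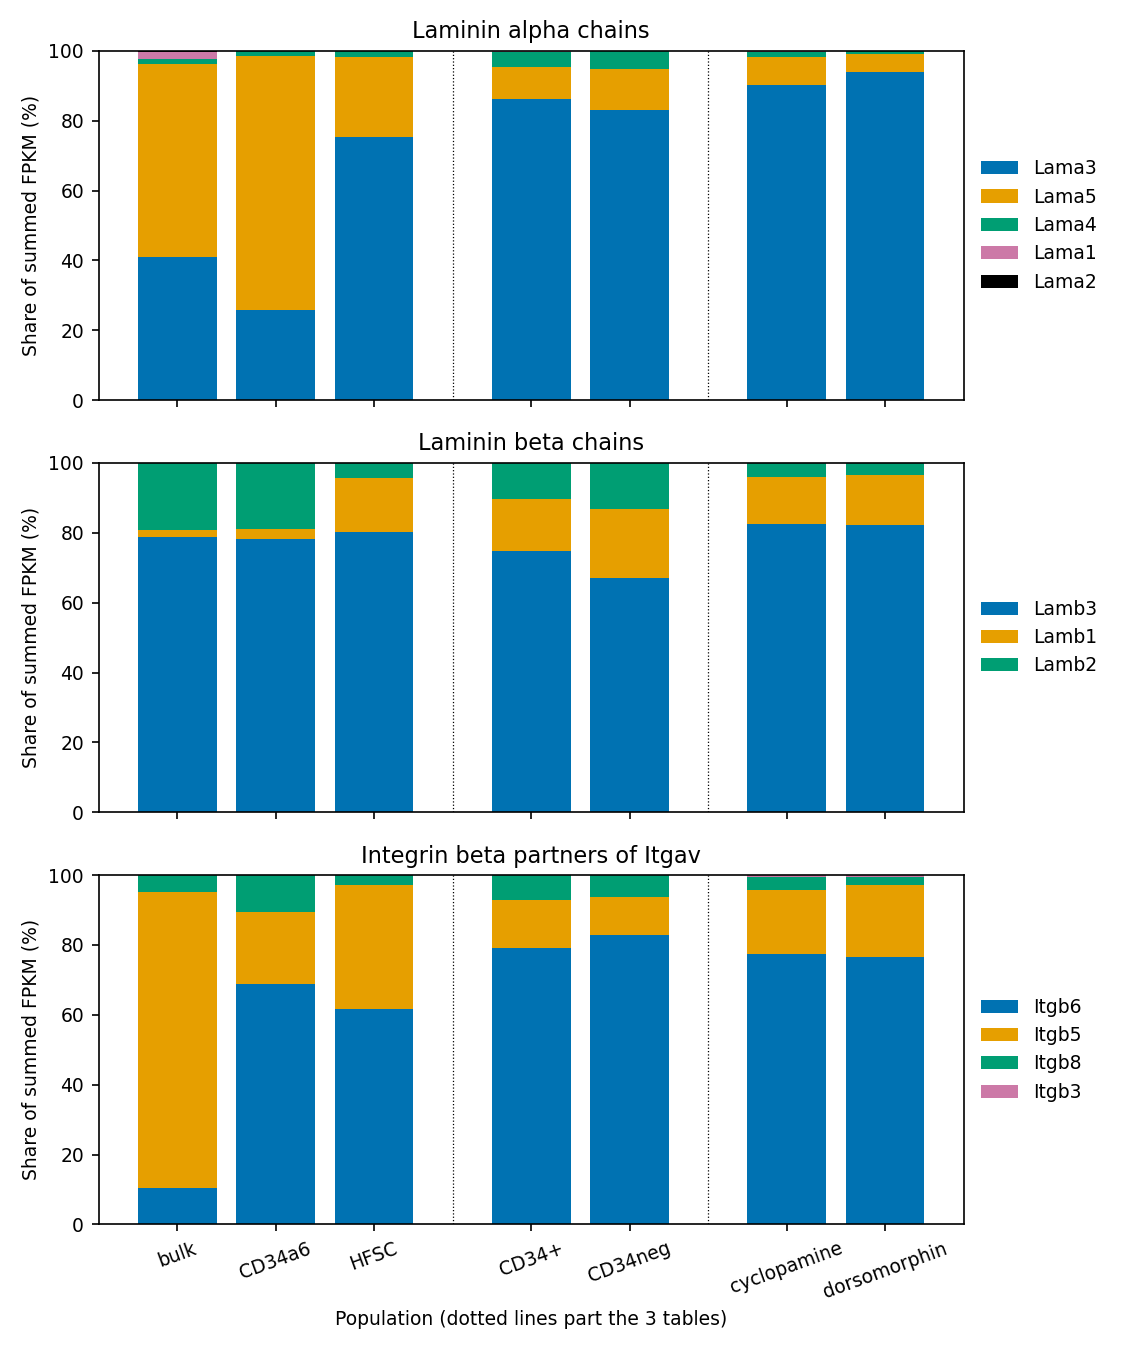
Shares of summed FPKM (%) in each population for the laminin alpha chains, the laminin beta chains and the beta partners of Itgav, as stacked bars, with dotted lines between the 3 separately normalised tables. Of laminin alpha FPKM, Lama5 holds 72.5% in CD34a6 and Lama3 holds 75.3% in HFSC. In each of the 4 populations of 3C cultures at the right, Lama3 holds at least 82.98%. Itgb5 holds 84.7% of the beta partners in bulk.

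Partners of these receptors were read from 4 lists. Beside their counts by adjusted p stand the shares of all loci tested. For CD34a6, 22.0% of loci passed above bulk and 24.3% under it, and for HFSC 19.0% and 24.7%. With HFSC set against CD34a6, 25.2% passed above and 29.0% under. Whether a list differed from these shares was not tested. In CD34a6 the hemidesmosome list had 3 of 6 tested genes above bulk and 1 under it by the authors' test, with Col17a1, the hemidesmosome collagen, at 1310.3 against 268.6 FPKM, Dst, a plakin, at 285 against 59.1, and Col7a1, of anchoring fibrils, at 291 against 65.0. In HFSC 3 of 6 were higher and 0 lower, with Col17a1 at 1084. At an unadjusted p under 0.05 in the same test, 3 were higher and 2 lower in CD34a6, and 3 and 0 in HFSC. Krt14, the basal keratin on this list, was lower in CD34a6 (1257 against 3419.7 FPKM) and higher in HFSC (8296). Basement membrane genes were higher in CD34a6 for 12 of 14 and lower for 0, with the proteoglycan gene Hspg2 at 71.0 against 6.90 FPKM and Col18a1 at 224 against 23.4. At an unadjusted p under 0.05 also 0 of them were lower. In HFSC 6 of 14 were higher than bulk and 3 lower (7 and 4 at an unadjusted p under 0.05 in that test). Against CD34a6, 12 of 15 were lower and 2 higher in HFSC, with the same counts by unadjusted p. Among the lower ones were Bcam, a receptor for Lama5, at 63.4 against 399.6 FPKM and Frem2 at 0.192 against 81.7. The median log2 ratios of this list were 2.60, 0.47 and -1.94 for CD34a6 over bulk, HFSC over bulk and HFSC over CD34a6.

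The list of integrin ligands, which holds RGD ligands and also ligands of leukocyte and epithelial integrins such as Icam1 and Cdh1, was split by gene. Npnt, the nephronectin ligand of the Itga8 chain, stood at 16.2 FPKM in bulk, 455 in CD34a6 and 3.29 in HFSC, and Egfl6, another ligand of that chain, at 5.35, 67.8 and 0.0543. Itga8 itself was higher in HFSC than in CD34a6, while both ligands were lower there. Thbs1, the thrombospondin-1 gene, was at 4.65 FPKM in bulk, 5.35 in CD34a6 and 179 in HFSC. In CD34a6 against bulk 7 of 16 ligands were higher and 1, Icam1, was lower, in HFSC against bulk 8 of 15 and 3, and in HFSC against CD34a6 6 of 17 and 8. In the same order, 46.3%, 43.7% and 54.2% of all loci tested passed in either direction. For integrin activation and focal adhesions, 18 of 28 genes were above bulk and 2 below it in each population by the authors' test, with medians of 1.28 in CD34a6 and 1.53 in HFSC. Beside these counts, 22.0% of all loci were above bulk and 24.3% below it in CD34a6, and 19.0% and 24.7% in HFSC. The lower ones were the same in both, Fermt3, the kindlin of blood cells (0.402 and 0.0899 against 10.1 FPKM), and Itgb1bp1, which binds the beta-1 tail (20.2 and 17.4 against 123). Tns1 and Tns2, of the tensin family, were at 80.4 and 34.5 FPKM in CD34a6 and at 6.48 and 1.66 in HFSC, whereas Parva, which links the integrin-bound kinase to actin, was at 28.0 and 80.4.

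**Figure D3:**
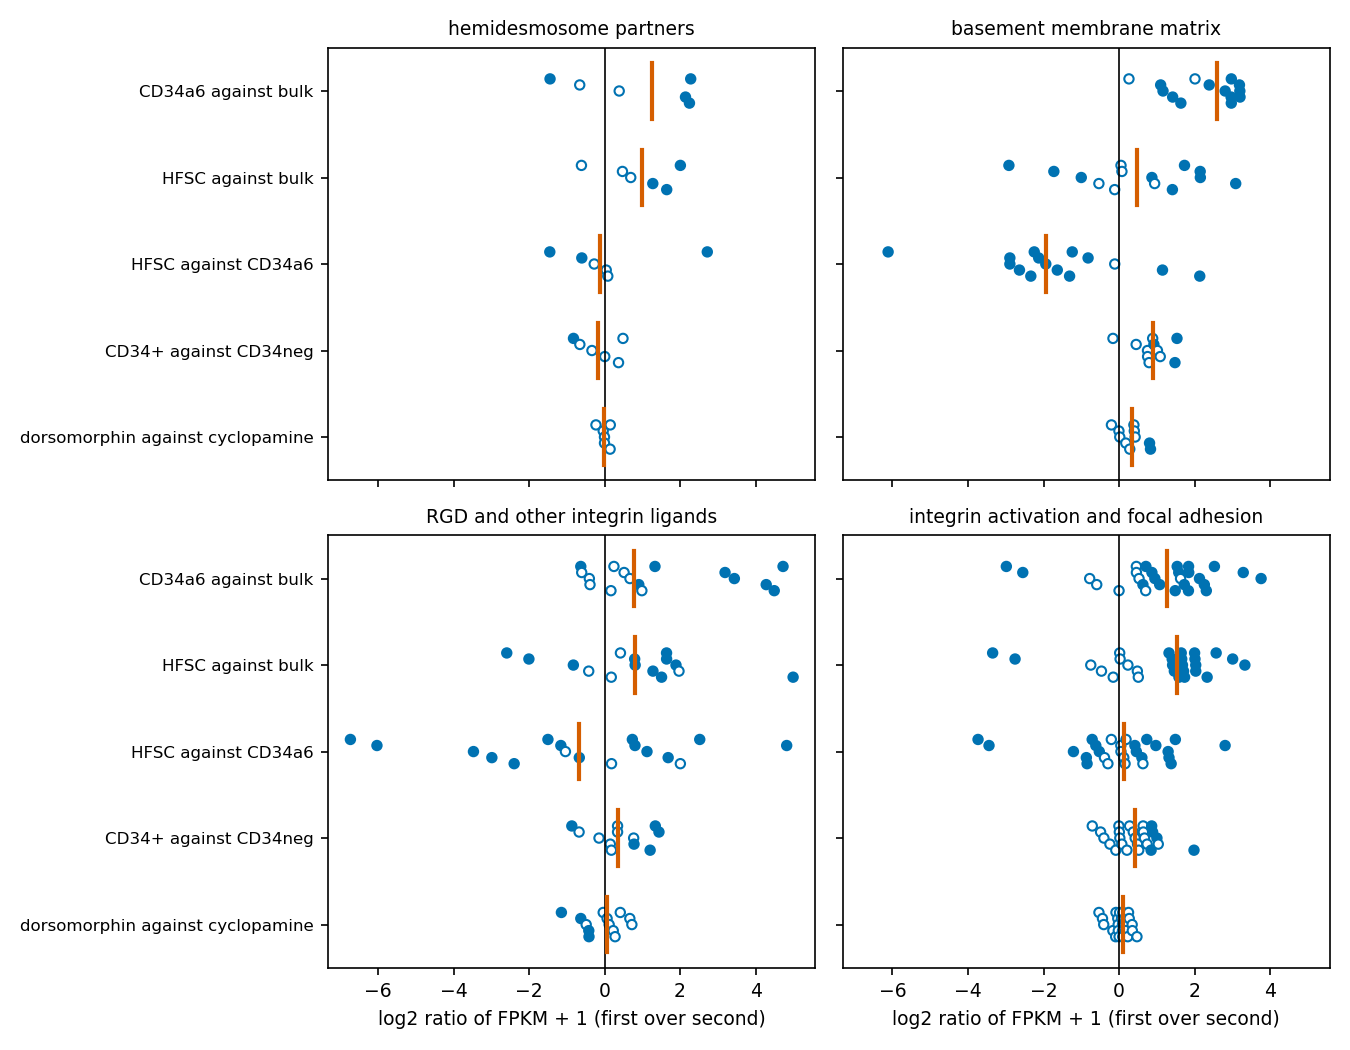
log2 ratio of FPKM + 1, first population over second, for the tested genes of 4 lists of integrin partners in each of the 5 comparisons. Each point is 1 gene, filled where its adjusted p was under 0.05, spread vertically for legibility, with an orange bar at the median. The basement membrane list has its median at 2.60 for CD34a6 over bulk and at -1.94 for HFSC over CD34a6.

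In the 3C cultures, Itgb4, the hemidesmosome beta chain, was the integrin or laminin gene that passed between the sorted fractions, and it was higher in the CD34+ one. The table names the fractions 3C_HFSC and 3C_CD34n, read as CD34+ and CD34neg after the labels' description, and both were sorted as alpha-6 integrin+. Cd34 stood at 38.7 FPKM in the CD34+ and 2.26 in the CD34neg fraction. Of 19 genes tested, 1 was higher in the CD34+ fraction and 0 were lower, where 2.08% of all 11370 loci tested were higher and 4.71% lower (6.79% in all). At an unadjusted p under 0.05 the authors' deposited table had 5 higher and 0 lower, beside 988 and 1578 of the 11370 loci. The gene that passed was Itgb4, at 151 FPKM against 81.9 (log2 ratio 0.87, adjusted p = 0.0421 in the authors' deposited table). Lamb3 was at 71.7 against 39.2 FPKM (0.86, adjusted p = 0.0680 in the authors' deposited table), and Lama3 at 130.5 against 92.2 (adjusted p = 0.212 in the authors' deposited table). These 3 and Itgb8 (12.3 against 8.03) were among those with an unadjusted p under 0.05. Itga6, the sort gene, was at 346 and 327 FPKM, and Itgb1 at 249 and 242. The inverse ratio, of Itgb4 to Itga6 FPKM, was 0.435 in the CD34+ and 0.250 in the CD34neg fraction.

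All 19 tested genes had the higher FPKM in the CD34+ fraction, although 18 of these differences did not pass, while 5044 of the 11370 tested loci did so. In an alternative chosen after seeing the data, 17 were above once the trend of the ratio on transcript length was subtracted. The median log2 ratio was 0.35 beside -0.07 over all loci. Values not yet given included Itga3 at 142 against 96.4 FPKM, Itgb6 at 134 against 105, Itgb5 at 22.8 against 13.4, Itga8 at 10.4 against 6.44 and Lamc1 at 20.6 against 14.3. Close to equal were Itga5 at 6.22 and 5.93 FPKM and Lama5 at 13.7 and 13.1. Itga2 stood at 29.1 against 24.8 FPKM, Itgav at 77.7 against 68.2, Lama4 at 6.59 against 5.67, Lamb1 at 14.1 against 11.6 and Lamb2 at 10.03 against 7.69. Of the genes not tested, Itga7 had the highest FPKM, at 0.498 and 0.722. All leukocyte chains stood at or under 0.452 FPKM in both fractions and were not tested, and 12 of 14 immune markers, Ptprc among them, were listed at 0 in each. Over all loci tested, 2.08% passed as higher and 4.71% as lower. At an unadjusted p under 0.05 in the authors' deposited table, 988 and 1578 of the 11370 loci did so. Of the partner lists, integrin ligands passed as higher in 4 of 12 cases and as lower in 1. The higher ones included Postn at 198 against 72.3 FPKM and Thbs1 at 133 against 51.6, and the lower one was Vcam1, the ligand of the Itga4 chain, at 3.15 against 6.56. In the same comparison 5 of 25 focal adhesion genes were higher and 0 lower (11 and 1 at an unadjusted p under 0.05), with Tns1 at 7.74 against 1.21 FPKM and Zyx at 67.6 against 33.2. Basement membrane genes passed as higher in 3 of 11 cases and as lower in 0 (9 and 0 at an unadjusted p under 0.05 in the authors' deposited table), with the linker gene Nid1 at 12.8 against 3.76 FPKM. The 1 hemidesmosome partner that passed, Cd151, a tetraspanin bound to alpha-6 and alpha-3 integrins, was lower, at 81.6 against 145 FPKM. The smooth muscle actin gene Acta2, of the endothelial and mural list, was also higher in the CD34+ fraction at 31.8 against 12.9 FPKM, while Cdh5 and Des of that list were at 0 in both, and its part in the values was not tested.

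**Figure D4:**
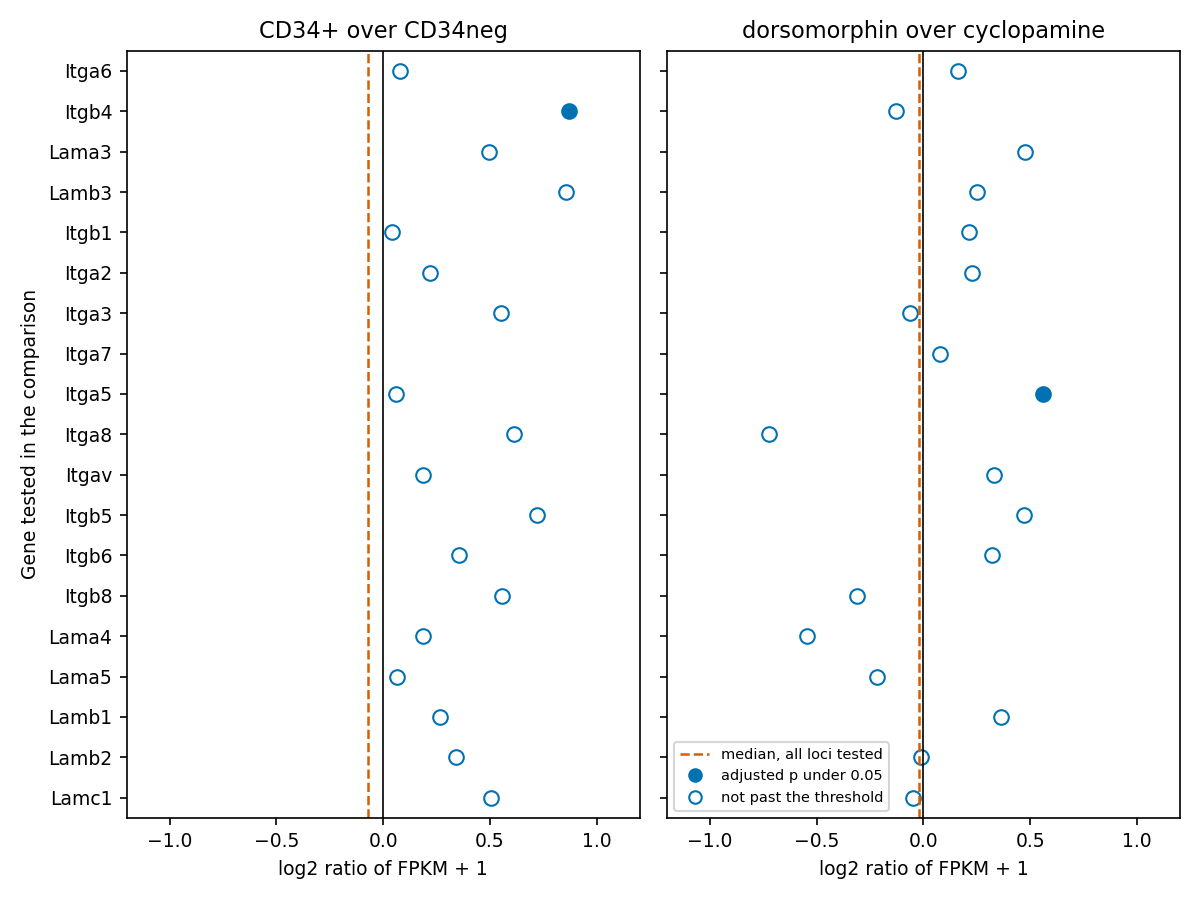
log2 ratio of FPKM + 1 for the genes reported here that were tested in the comparison of CD34+ with CD34neg fractions (left) and of dorsomorphin with cyclopamine (right), filled where the adjusted p was under 0.05, with a dashed line at the median over all loci tested. On the left all points lie right of 0 with Itgb4 filled, and on the right points lie on both sides of 0 with Itga5 filled.

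Between dorsomorphin and cyclopamine, the fibronectin receptor chain Itga5 was the integrin or laminin gene that passed. Of 20 genes tested, 1 was higher with dorsomorphin and 0 were lower, where 1.26% and 1.31% of all loci tested were higher and lower (2.57% in all). At an unadjusted p under 0.05 in the authors' deposited table, 2 genes were higher and 1 lower, beside 716 and 736 of the 11505 loci. The gene that passed was Itga5, at 18.8 FPKM with dorsomorphin and 12.4 with cyclopamine (log2 ratio 0.56, adjusted p = 0.00479 in the authors' deposited table). This was under 2-fold, as was every tested gene of the group other than Itga8. Lama3 was at 327 against 235 FPKM (0.47, adjusted p = 0.0634 in the authors' deposited table) and Itga8 at 0.687 against 1.79 (-0.72, adjusted p = 0.393). Lamb3 was at 121 against 102 FPKM and Itga6 at 436 against 390.1. Itgb4 was at 206 against 226 FPKM and Itgb1 at 344 against 297. Itga2, Itgav, Itgb5 and Itgb6 stood at 70.3, 80.8, 23.5 and 87.0 FPKM with dorsomorphin and at 59.8, 64.0, 16.6 and 69.5 with cyclopamine. Itga3, Itga7 and Itgb8 stood at 213, 1.61 and 2.35 FPKM with dorsomorphin and at 223, 1.47 and 3.16 with cyclopamine. The laminin genes Lama4, Lama5, Lamb1 and Lamb2 stood at 2.24, 18.2, 21.3 and 5.08 FPKM with dorsomorphin and at 3.72, 21.3, 16.4 and 5.13 with cyclopamine. Lamc1 stood at 26.9 FPKM with cyclopamine, with a log2 ratio of -0.05. Dorsomorphin was above cyclopamine for 12 of the 20 genes, beside 5407 of all 11505 loci tested. Of the genes not tested, Itgb3 had the highest FPKM, at 0.777 and 0.572. Cd34 was at 6.87 and 11.7 FPKM and did not pass. Acta2 was higher with dorsomorphin (6.95 against 3.14 FPKM). The 8 fibroblast markers summed to 27.6 against 16.5 FPKM, but only 2 of them were tested and 0 passed. The part of such cells was not tested.

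Lama3 held 94.0% of laminin alpha FPKM with dorsomorphin and 90.2% with cyclopamine, and Lama5 held 5.24% and 8.18%. The ratio of Itga6 to Itgb4 FPKM was 2.11 and 1.73. Fn1, the fibronectin ligand of the Itga5 and Itgb1 chains, was at 4.50 against 2.46 FPKM (authors' deposited table, adjusted p = 0.265). Among the ligands, 4 of 13 were lower with dorsomorphin and 0 higher: Postn, the periostin gene, at 15.3 against 34.9 FPKM, Spp1, of osteopontin, at 60.9 against 94.7, Tnc at 13.4 against 18.2 and Thbs1 at 43.8 against 58.6. At an unadjusted p under 0.05, 3 ligand genes were higher and 5 lower, beside 716 and 736 of all 11505 loci tested (authors' deposited table). By adjusted p, 1.26% of all loci were higher and 1.31% lower. Basement membrane genes were higher for 2 of 10, with Col4a2 at 6.31 against 3.11 FPKM. Focal adhesion genes passed for 0 of 25, with 4 higher and 0 lower at an unadjusted p under 0.05. The leukocyte chains stood at or under 0.335 FPKM, and of 14 immune markers 7 were listed at 0 with cyclopamine and 9 with dorsomorphin, Cd68 being the 1 at 1 FPKM or more.

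The loci lie on GRCm38. Itga6 was placed at 71745616 to 71858416 on chromosome 2 and Itgb4 at 115974709 to 116008412 on chromosome 11, both on the plus strand and with the ends of the annotated gene. Lamc1 was placed at 153218922 to 153332786 on the minus strand of chromosome 1. Of the 36 loci, 21 had the ends of the gene in GENCODE vM21, 3 also covered a coding gene on the same strand (Itga1, Itga9 and Itgam) and 8 a coding gene on either strand. The Lamb3 locus, from 193203038 to 193343878 on chromosome 1, also covers Hsd11b1 and G0s2 on the other strand. That of Itga7 covers Mettl7b and that of Itgae covers Haspin, both on the other strand. Whether strand was used in counting is not given in the sources used here, so reads of these genes may not be separated.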

How the data were processed

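Per the file headers, the 3 deposited files list comparisons made by the authors with the columns Cuffdiff writes, 3 pairs of populations in one file and 1 pair in each of the others. For the 9 libraries of the first table the submitters' processing notes list Cuffdiff, Cufflinks (2.2.1), StringTie (1.1.0), HISAT (0.1.6) and FastQC (0.11.3), although TopHat2 alignment stands in the labels. For the other 12 they list DESeq2 (1.8.1), featureCounts from Subread (1.4.2), TopHat2 (2.0.13), cutadapt (1.5) and FastQC (0.11.2), so which tool made those p-values is not settled. The notes give GRCm38 as the build.

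FPKM values were deposited by the authors, 1 per locus and population, and assigned by the population named on each line. The deposited log2 fold change is the log2 ratio of the values of a line, per the file headers. Deposited p-values are the authors' test, and the q-values equalled a Benjamini-Hochberg adjustment over the tested loci of a table to within 5.29e-07. The lines of a locus that the tables repeat were counted once. Read depth was unknown, so no counting interval is given.

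Computed here, with Python 3.11.15 and pandas 2.3.3, were ratios and shares of FPKM, log2 ratios with a pseudocount of 1 FPKM, which understates the folds of low genes, counts of calls, and the overlap of loci with GENCODE vM21. The adjustment and the length trend were tested on simulated data. No test of genes was made here. All 36 genes enter the counts, and they are named except for 1 that is not reported here. Of each of the 4 partner lists, up to 4 called genes with the largest ratios and at least 5 FPKM in the higher population were eligible to be named. Cd34 was named too, and Fn1, the keratins Krt1, Krt10 and Krt15, Icam1, Cdh1 and the other-cell markers were named after their values were seen. The genes and lists were chosen with earlier results of these data known. Alternatives were the threshold, a 2-fold minimum, a floor of 1 FPKM, adjustment within a pair, other pseudocounts, 2 scalings and a length trend.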

Additional observations from a re-analysis of the deposited data

How the results depend on the processing

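Counts of called genes were within 1.5 times the reported ones in 31 of 36 alternatives. At an adjusted p under 0.01, the genes lower in CD34a6 than in bulk numbered 3 in place of 5, and those higher in the CD34+ fraction numbered 0 in place of 1. With a 2-fold minimum, 0 genes were higher in the CD34+ fraction and 0 with dorsomorphin, since Itgb4 and Itga5 differed by less. With at least 1 FPKM in the higher population, 3 in place of 5 genes were lower in HFSC than in bulk. Taking FPKM as a share of its sum added 1.17, 0.93, -0.25, 0.41 and 0.11 on the log2 scale for CD34a6 over bulk, HFSC over bulk, HFSC over CD34a6, CD34+ over CD34neg and dorsomorphin over cyclopamine, and moved the medians to 2.26, 1.78, 0.18, 0.76 and 0.30 in place of 1.15, 1.02, 0.41, 0.35 and 0.19. With the length trend subtracted they were 0.70, 0.69, 0.51, 0.31 and 0.16, and with a pseudocount of 0.01 FPKM the first and second were 1.60 and 1.51. With the length trend subtracted, 0 of the 58 called log2 ratios and 5 of the 61 others changed sign, and with FPKM as a share of its sum, which moves all genes one way, 0 and 6 did. No paired analysis was possible because the tables hold no value per replicate, and for the same reason no replicate was left out. Levels in different tables were not compared.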
